A study of Tachycineta bicolor with 30 samples.

Results

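The hypothalamus (HYPO) was compared with the hindbrain (HB) in the brains of wild female tree swallows (Tachycineta bicolor), across all transcripts measured. The comparison used every library of these 2 regions that has values, 9 HYPO and 9 HB libraries, which is 18 of 27 libraries with values and of 30 labelled samples. A further female, caught early in the season, has labelled samples but no HYPO or HB values. The paper removed her because RNA integrity was low in these 2 regions and her profile stood apart. Each of 9 females gave 1 HYPO and 1 HB library. The HYPO_TE and HB_TE groups hold the 4 females caught early in the season while they established territories (TE), and the HYPO_INC and HB_INC groups hold the 5 females caught while they incubated eggs (INC). All were free-living adult females with no treatment, and each library is the RNA of 1 macrodissected tissue block from 1 bird. The HYPO dissection took in the preoptic area and the ventromedial hypothalamus. The HB tissue was cut where the mammillary bodies lie. Another region, the ventromedial telencephalon (VmT), has 9 libraries and is given only for side-by-side values.

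The hypothalamus joins the brain to the endocrine system. Its neurons make peptides that act on the pituitary or within the brain on feeding, water balance, reproduction and social behaviour, and they arise from the embryonic forebrain. The hindbrain arises from segments that are patterned by Hox transcription factors, and it holds the motor neurons of cranial nerves, glycine neurons that inhibit motor circuits, the serotonin neurons of the raphe and noradrenaline neurons, along with long myelinated tracts.

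Values are normalized counts. Each library's read counts were scaled by a single size factor, with no correction for the length of a transcript. The levels of different genes are therefore not compared with each other. Dividing by the value of 1 read returned between 6001315 and 9957280 reads per library, summed over the transcripts of the table, with medians of 7936237 in HYPO and 8740325 in HB. The paper reports a larger number of mapped read pairs per sample, and the reason for the gap was not tested. The region difference is given as a log2 fold change (log2FC) of HYPO minus HB on the scale of log2(value + 1), from a limma fit with stage as a covariate and the female as a replicate block. A transcript is called when its adjusted p is at most 0.05, and the added 1 makes the log2FC of low genes smaller than the ratio of their means. In whole tissue, fewer cells of a type and less RNA per cell cannot be told apart.

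Of the defining genes named here, all those of HB and part of those of HYPO were as labelled in all 18 libraries. Each of the 14 Hox transcripts measured had its lowest HB value above its highest HYPO value, and so did the hindbrain genes PHOX2A, SLC6A5, TPH2, DBH and CHAT. Of the hypothalamic genes, NKX2-1, SIX6, PMCH, NPVF and VIP separated the 18 libraries in the opposite direction. SIX3 and AGRP were called higher in HYPO, but their ranges overlapped. SIX3 had 147 to 264 in HYPO and 0 to 186 in HB, and AGRP 5.19 to 73.8 and 1.93 to 51. RAX overlapped at low levels, 0 to 4.57 in HYPO and 0 to 2.17 in HB. OTP (log2FC = -0.22, adjusted p = 0.603), CRH (log2FC = 0.03, adjusted p = 0.909) and TRH (log2FC = 0.92, adjusted p = 0.0879) were not called, although TRH was called higher in HYPO under 6 of 43 alternatives.

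The libraries also carried transcripts of neighbouring tissues in unequal amounts. The HB library of female 85889, an incubating bird, held 82800 normalized counts of PRL, the pituitary hormone prolactin, against 0 to 195 in the other HB libraries. The summed level of the 9 measured pituitary markers was 104900 in that library and 6018 to 7587 in the other HB libraries, and 4994 to 7937 in HYPO. The same library had the highest HB values of SIX3 (186) and NR5A1 (34.3), which the pituitary and the hypothalamus both express. TBR1, a telencephalon gene, ranged from 3.91 to 52.2 in HYPO and from 0 to 4.34 in HB. GABRA6, a cerebellar receptor subunit, ranged from 3.46 to 119 in HYPO and from 2.25 to 112.2 in HB (adjusted p = 0.966), and TTR, a choroid plexus gene, from 2.82 to 15010 and from 45.8 to 12270 (adjusted p = 0.723). The part of these tissues in the region difference was not tested as such, and counts without the HB library of female 85889 are given beside the main counts.

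**Figure D1:**
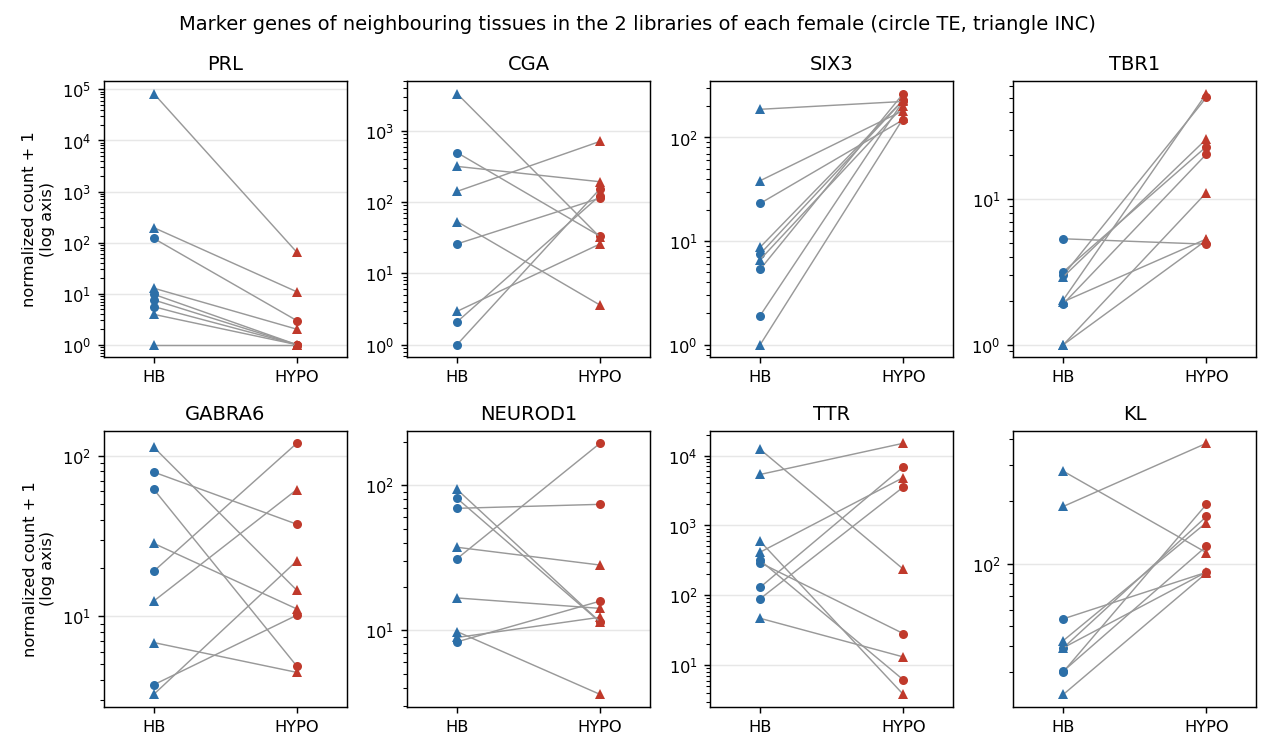
Normalized count + 1 (log axis) of 8 marker genes of neighbouring tissues in the HB (blue) and HYPO (red) library of each of 9 females, joined by a line. Circles are TE and triangles INC females. 1 HB library stands far above the other 8 in PRL and is also the highest HB library in CGA and SIX3, while GABRA6 and TTR are spread over both regions.

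Of 19437 transcripts tested, 4016 (20.7%) were called. Higher levels in HYPO were found for 1584 transcripts (8.15%) and in HB for 2432 (12.5%). These shares are the background for the counts of each gene list below. Each list symbol stands for its transcript with the highest mean, while the background includes many low transcripts. When only the 11790 transcripts with a mean of at least 50 were fitted, 1368 were higher in HYPO and 2380 in HB. Both are larger shares than those over all transcripts. The lists and their members were chosen with earlier results of these data known. Their counts therefore describe the lists and are not a test of them. A smaller set separated the regions by a wide margin. Here a marker is a called transcript with a log2FC of at least 2 in size, a fold of 4, whose 9 values in one region all lie above the 9 of the other. Over all transcripts, values did not overlap for 231 higher in HYPO (1.19%) and 253 higher in HB (1.3%). There were 46 HYPO markers (0.237%) and 48 HB markers (0.247%). Without the HB library of female 85889 the marker counts were 56 and 48, and the called counts 1492 and 2230. The split of the calls between the directions depends on scaling, since HYPO-higher transcripts made up 39.4% of the calls with the deposited scaling, 47.7% with TMM factors and 49.4% after quantile normalization. The median log2FC of all transcripts was -0.04.

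The markers had different makeups. Of the 46 HYPO markers 13 had homeobox or Hox in their protein name and none was a Hox gene. Of the 48 HB markers 19 had such a name, 14 of them Hox. This count leaves out homeobox genes named otherwise, such as ISL1, LBX1 and IRX4. Over all transcripts tested, 114 (0.587%) carried such a name. The VmT mean was above the HB mean for 45 of the 46 HYPO markers and above the HYPO mean for 27 of them. For the HB markers it was above the HB mean in 0 of 48 and under 5 normalized counts in 35.

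**Figure D2:**
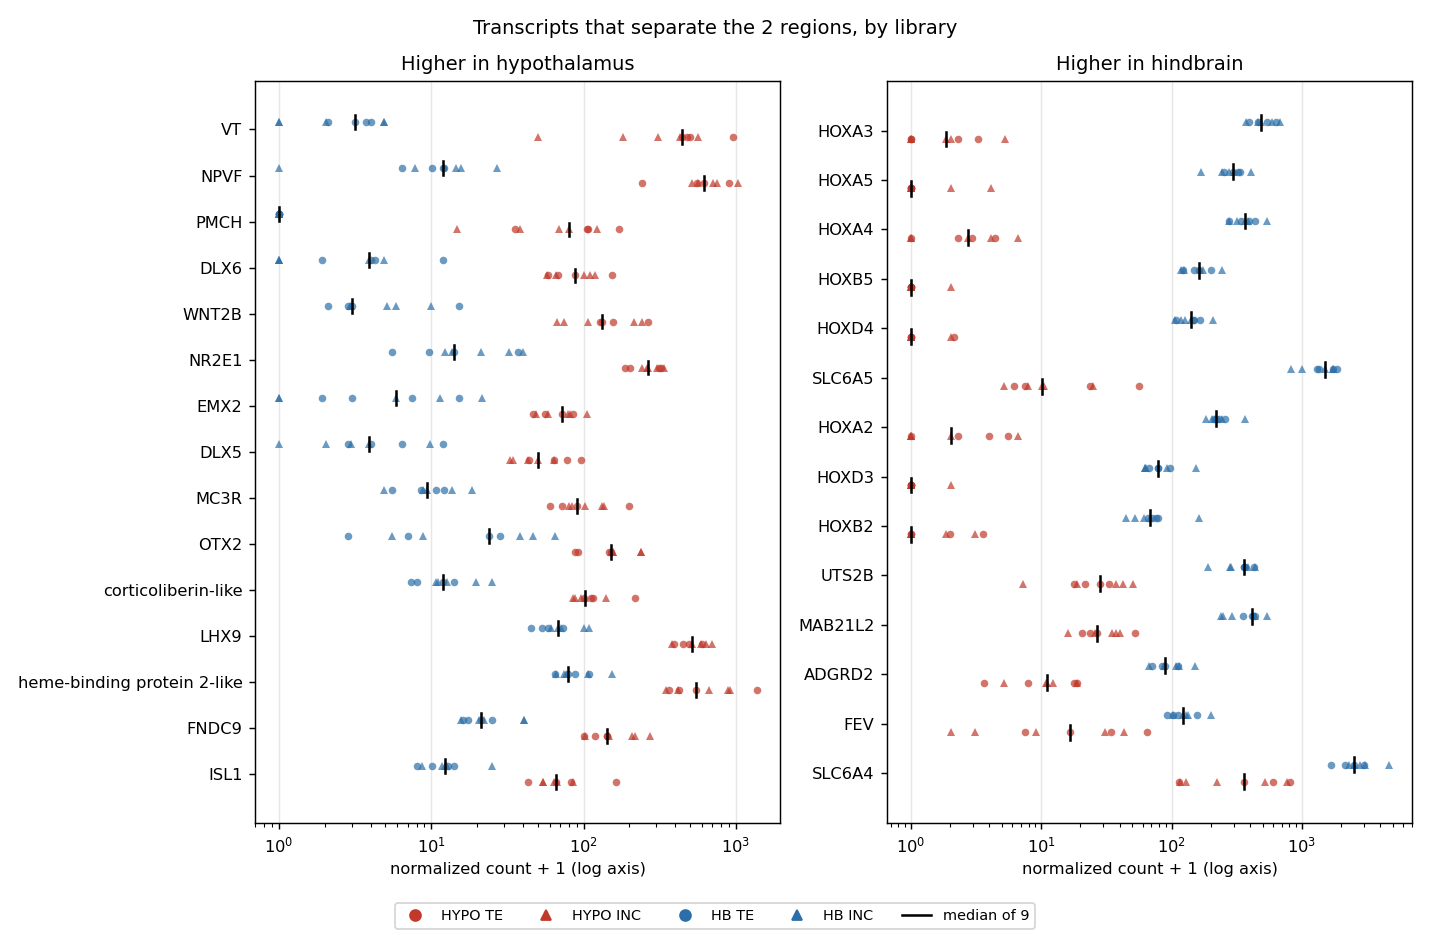
Normalized count + 1 (log axis) of 15 HYPO-higher and 14 HB-higher transcripts, those with the largest log2FC among called transcripts that separate the regions and have a mean of at least 50 in the higher region. Each point is 1 of 18 libraries (red HYPO, blue HB, circles TE, triangles INC) and black bars are medians of 9; in every row all points of one colour lie to one side of the other colour.

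The Hox genes gave the largest differences of the comparison. All 14 measured were higher in HB, against 12.5% of all transcripts. Their median log2FC was -5.88, or -6.34 when the 3 genes with no HYPO read are set at the fold that 3 reads would allow, against -0.04 over all transcripts. HOXA3 had 370, 487 and 680 normalized counts in HB (lowest, median and highest of 9 libraries) and 0, 0.866 and 4.22 in HYPO. Its log2FC was -8.17 (standard error 0.25, adjusted p = 7.9e-16). No HB library came near the HYPO range.

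HOXA5 (168, 298 and 407 in HB and 0 to 3.13 in HYPO) and HOXA4 (275, 367 and 535 in HB and 0 to 5.63 in HYPO) followed, with log2FC of -7.80 and -7.27. HOXB5 ranged from 117 to 241 in HB. It was represented in HYPO by 1 read in all 9 libraries, so that its ratio of 1314 has a 95% exact counting interval of 235.5 to 51940. HOXB6, HOXB3 and HOXA6 had no read in any HYPO library. Set against 3 reads over the 9 HYPO libraries, they were at least 87.8-fold, 61.7-fold and 37.3-fold higher in HB.

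For the A cluster the HB medians were 218 for HOXA2, 487 for HOXA3, 367 for HOXA4, 298 for HOXA5, 12.5 for HOXA6 and 7.27 for HOXA7. These levels are not divided by transcript length and are not ranked against each other. The spread of the HB libraries differed between genes. The highest HOXA3 value was under 2 times the lowest, while HOXB2 spread from 43.5 to 162 and HOXA7 from 1.96 to 19.1. VmT means of the 14 were all below 0.5 normalized counts, beside HYPO means of up to 1.91.

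**Figure D3:**
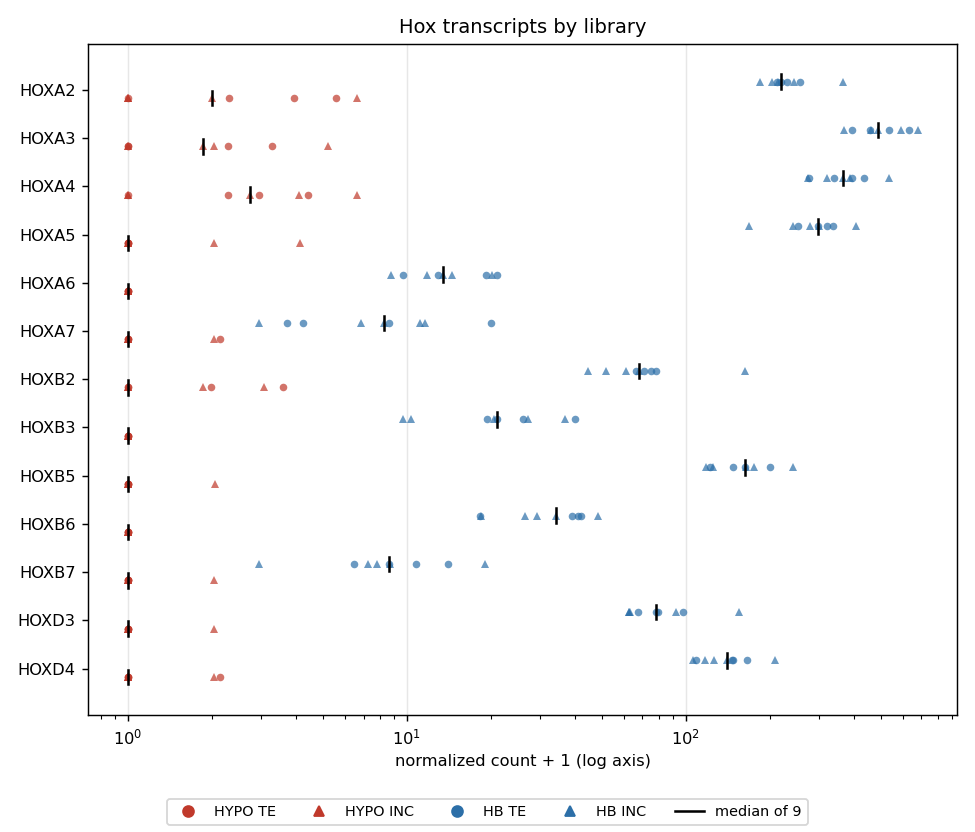
Normalized count + 1 (log axis) of 13 of the 14 Hox transcripts in 18 libraries (red HYPO, blue HB, circles TE, triangles INC; black bars are medians of 9). HYPO points lie at or near 1, which is a count of 0, and every HB point of a gene lies above every HYPO point of that gene.

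Other transcription factors of the hindbrain and spinal cord mostly followed the same direction. Of 34 measured, 18 were higher in HB and 4 in HYPO, with a median log2FC of -0.74. MAB21L2 had 240, 411 and 542 in HB and 15.2, 25.9 and 51.4 in HYPO (log2FC = -3.64, adjusted p = 2.2e-12). The 2 regions did not overlap for this gene.

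Genes known to specify narrower neuron classes also separated the regions. PHOX2A (log2FC = -3.32) ranged from 4.16 to 21.4 in HB and had 3 HYPO reads in all. TLX1, a factor of dorsal sensory neurons (-3.28), MNX1, a factor of somatic motor neurons (-2.94), and LBX1, of dorsal association neurons (-2.76), had HB medians of 11.7, 6.82 and 10.6. NKX6-1 (-1.47) and PAX2 (-1.28) did not overlap between regions either. The members of this list that were higher in HYPO were led by LHX2, at 216, 277 and 320 in HYPO and 44.5, 59.8 and 94.1 in HB (log2FC = 2.06, adjusted p = 6.2e-12), and TAL1 (0.87). LHX2 also stands in the lists of telencephalon and tanycyte genes.

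A gene of glycine neurons had the largest HB-higher difference outside the Hox genes among the named transcripts. SLC6A5, the glycine transporter of glycine-releasing terminals, had 827, 1509 and 1872 normalized counts in HB and 4.16, 9.09 and 54.9 in HYPO (log2FC = -6.83, standard error 0.29, adjusted p = 3.4e-13). The 2 regions were far from overlapping. SLC6A9, the transporter found mainly on glia, differed less, at 3082 to 4672 in HB and 1986 to 3036 in HYPO (-0.65, adjusted p = 2.9e-06). Of 11 genes of glycine transmission measured 3 were higher in HB and 0 in HYPO, and the receptor subunit GLRB had a log2FC of -0.19 (adjusted p = 0.0271). It was not called under 15 of the 43 alternatives tried.

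Serotonin neurons were marked by a set of genes. SLC6A4, the serotonin transporter, had 1680, 2538 and 4636 in HB and 114, 358 and 806 in HYPO (log2FC = -3.09, standard error 0.34, adjusted p = 6.7e-07). TPH2, which makes neuronal serotonin, had 264, 415 and 742 in HB and 23.3, 61.2 and 130 in HYPO (-2.75, adjusted p = 6.4e-07). FEV, the transcription factor that defines serotonin neurons, had 92.1, 122 and 200 in HB and 1.04, 15.6 and 64 in HYPO (-3.16, adjusted p = 4.2e-05). None of the 3 overlapped between regions, yet all were present in HYPO. The HYPO libraries of females 85674, 85689, 85757 and 85899 were the 4 highest of HYPO in each of these 3 genes, and they come from both stages. VmT medians were 11.1 for SLC6A4, 21.9 for TPH2 and 0 for FEV.

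The other monoamine genes split between the regions. DBH, which makes noradrenaline, had 8.69, 23.7 and 43.6 in HB and 0, 1.29 and 4.91 in HYPO (log2FC = -3.20, adjusted p = 2.4e-07). TPH1, the other tryptophan hydroxylase, had the opposite pattern to TPH2, with 101.1, 189 and 268 in HYPO and 26.1, 45.2 and 57.5 in HB (2.004, adjusted p = 1.2e-08). HDC, which makes histamine, had 36.4, 58.6 and 107 in HYPO and 14.1, 19.1 and 30.4 in HB (1.68, adjusted p = 4.3e-07). Neither TPH1 nor HDC overlapped between the regions.

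TH, the rate-limiting enzyme of dopamine and noradrenaline synthesis, was higher in HYPO (1471, 1848 and 3691) than in HB (480, 860 and 1898), with a log2FC of 1.22 (adjusted p = 0.000568). Its ranges overlapped, and it was higher in HYPO in 7 of 9 females. A second transcript named tyrosine 3-monooxygenase-like, chosen after its values were seen, had 10.3 to 28.2 in HYPO and no read in HB, and was at least 52-fold higher in HYPO against 3 reads over the 9 HB libraries. DDC (log2FC = -0.03, adjusted p = 0.923) and SLC18A2 (-0.37, adjusted p = 0.271), which serotonin, dopamine and noradrenaline neurons share, were not called. In all, 5 of 15 monoamine genes were higher in HB and 4 in HYPO.

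The 3 genes that define cholinergic neurons were higher in HB and did not overlap. CHAT, which makes acetylcholine, had 324, 361 and 626 in HB and 23.3, 107 and 185 in HYPO (log2FC = -2.38, adjusted p = 1.0e-05). SLC18A3, its vesicular transporter, had 737 to 1415 in HB and 47.9 to 442 in HYPO (-2.31), and SLC5A7, the choline transporter, 2526 to 3975 and 248 to 1641 (-2.13). Of the 13 cholinergic genes measured 5 were higher in HB and 3 in HYPO, the latter led by the muscarinic receptor CHRM5 (1.158, adjusted p = 5.0e-08).

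**Figure D4:**
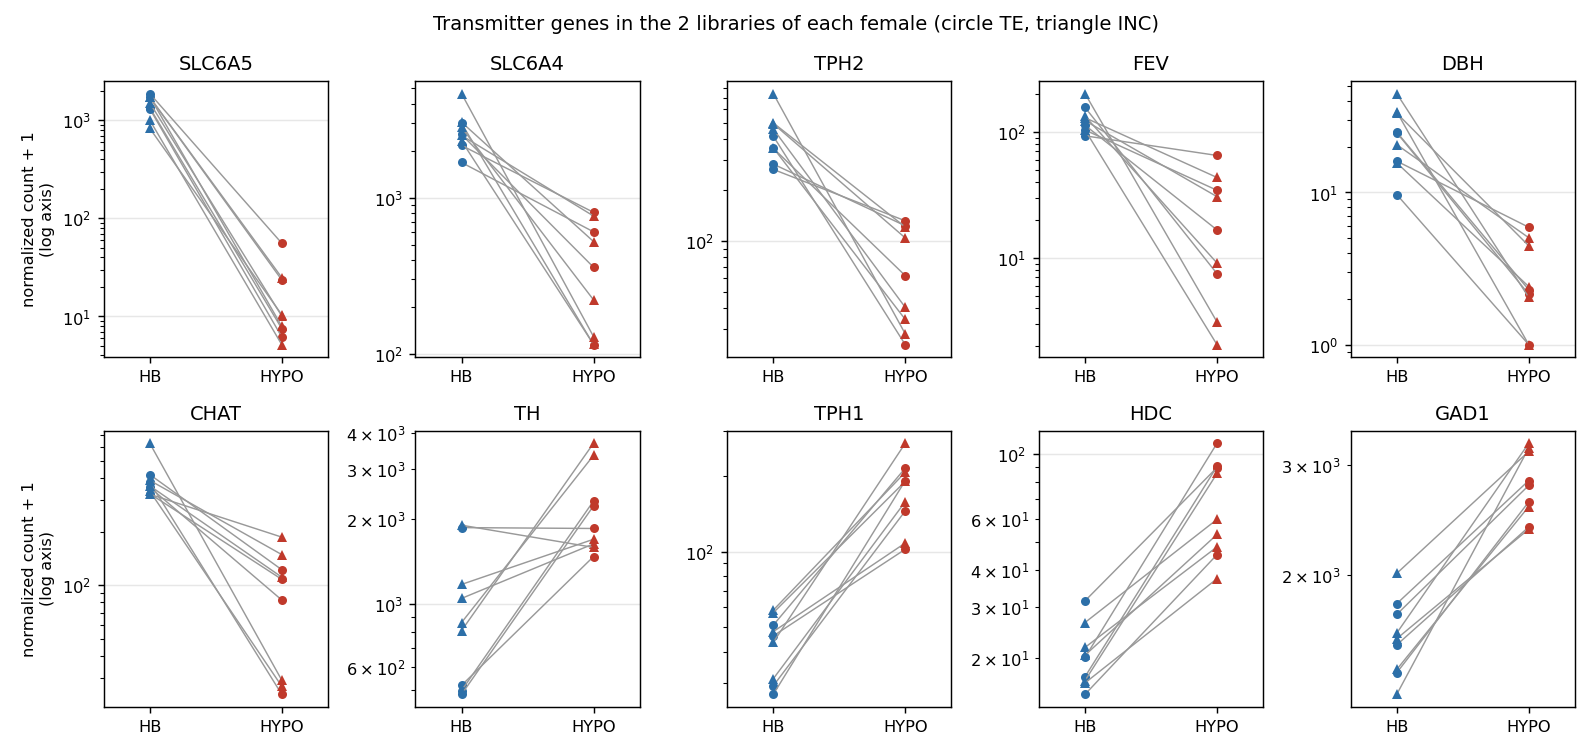
Normalized count + 1 (log axis) of 10 transmitter genes in the HB (blue) and HYPO (red) library of each of 9 females, joined by a line (circles TE, triangles INC). All lines fall from HB to HYPO for SLC6A5, SLC6A4, TPH2, FEV, DBH and CHAT, and rise for TPH1, HDC and GAD1, while TH is higher in HYPO in 7 of 9 females.

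Peptides of the urotensin family were also high in HB. UTS2B, a vasoactive peptide precursor, had 189, 360 and 433 in HB and 6.24, 27.5 and 49.3 in HYPO (log2FC = -3.74, standard error 0.24, adjusted p = 2.3e-10). UTS2, chosen after its values were seen, had 13.7, 50.9 and 99.4 in HB and 0 to 2.02 in HYPO (-5.04, adjusted p = 7.7e-10). Both separated the regions. ADGRD2, an adhesion receptor, had 65.8 to 151 in HB and 2.61 to 17.8 in HYPO (-3.21). FOXD3 (-3.004) and IRX4 (-2.93), transcription factors also named after their values were seen, did not overlap either, although for FOXD3 the lowest HB value (6.862) and the highest HYPO value (6.856) nearly met.

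Genes of myelin were higher in HB by smaller amounts. Of 33 measured, 20 were higher in HB and 0 in HYPO, and the median log2FC was -0.47. MBP, a main myelin protein, had 7349, 8723 and 9390 in HB and 3811, 5968 and 6984 in HYPO (log2FC = -0.55, standard error 0.08, adjusted p = 3.2e-05), with no overlap. PMP2 (-2.35), a lipid carrier of peripheral and some central myelin, was the member with the largest difference, and HAPLN2 (-1.07), a matrix protein of nodes of Ranvier, separated the regions. Of 11 genes of oligodendrocyte precursors 0 were higher in HB and 3 in HYPO.

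Genes of large projection neurons and fast firing were called in HB for 14 of 26 members and in HYPO for 1, KCNC2 (log2FC = 0.71, adjusted p = 5.3e-06). The neurofilament gene NEFM had 322, 563 and 1454 in HB and 49.2, 107 and 611 in HYPO (-1.98, adjusted p = 0.000375). It was higher in HB in all 9 females although the ranges overlapped. VAMP1, a vesicle fusion protein of fast synapses, had 3595 to 5823 in HB and 1319 to 2375 in HYPO (-1.45, adjusted p = 8.1e-10), and the axonal protein SNCG (-1.10) and the axonal potassium channel KCNA1 (-0.72) did not overlap between regions either. Among 21 astrocyte genes 8 were higher in HB and 0 in HYPO, from GFAP (-1.09, adjusted p = 1.4e-05) to smaller differences such as that of GJA1 (-0.28). Microglia and immune genes were higher in HB for 3 of 16 members and blood, vessel and meninges genes for 3 of 22, close to the 12.5% of all transcripts, and 0 of either list were higher in HYPO. The HB library of female 85889 had the highest summed HB level of both lists, 4425 against 1984 to 3478 for microglia and 11060 against 6049 to 10630 for blood and vessels, and its part in these counts was not tested.

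In the opposite direction, the hypothalamic peptide precursors had the largest share of members called of any list. The hypothalamic patterning factors described below had a larger median log2FC. Of 28 measured 18 were higher in HYPO, against 8.15% of all transcripts, and 2 in HB, and their median log2FC was 1.25. VT, the precursor of vasotocin, the bird form of vasopressin, had 49.3, 442 and 963 normalized counts in HYPO and 0, 2.17 and 3.9 in HB (log2FC = 7.07, standard error 0.40, adjusted p = 3.4e-11). The lowest HYPO library was still far above the highest HB library. NPVF, the precursor of gonadotropin-inhibitory hormone, had 240, 612 and 1033 in HYPO and 0, 10.9 and 26 in HB (6.06, standard error 0.39, adjusted p = 2.2e-10).

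PMCH, the precursor of melanin-concentrating hormone, had 13.8, 78.9 and 169 in HYPO and no read in any HB library. It was at least 240.3-fold higher in HYPO against 3 reads over the 9 HB libraries. PRLH, annotated as prolactin-releasing peptide-like, had 13.7, 28.2 and 45.1 in HYPO and 0 to 2.17 in HB (log2FC = 4.02, adjusted p = 3.8e-10). A transcript named corticoliberin-like, whose relation to CRH is not settled by its name, had 84.5, 101.3 and 216 in HYPO and 6.38, 10.9 and 23.9 in HB (3.17, adjusted p = 2.8e-10), and none of these genes overlapped between the regions.

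A second group of peptides was present in both regions and higher in HYPO without overlap. CCK, a satiety peptide, had 449, 657 and 851 in HYPO and 107, 118 and 166 in HB (log2FC = 2.35, standard error 0.11, adjusted p = 5.9e-13). PDYN, the dynorphin precursor (2.39), and GHRH, the releasing factor of growth hormone (2.21), had HYPO medians of 160 and 320 and HB medians of 38.3 and 60.9. VIP, which in birds drives prolactin release, had 562, 1189 and 1493 in HYPO and 213, 334 and 483 in HB (1.78, adjusted p = 5.8e-09). CARTPT (1.32) and NTS (1.28) also separated the regions.

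Other peptides overlapped between the regions. GAL (log2FC = 1.48) and NPY (0.96) were higher in HYPO in 8 of 9 females and PENK (0.84) in 9. AGRP, which drives feeding, had 5.19, 39.1 and 73.8 in HYPO and 1.93, 5.85 and 51 in HB (1.83, adjusted p = 0.00769), and was higher in HYPO in 6 of 9 females. GNRH1, the releasing hormone of gonadotropins, reached 53.1 in 1 HYPO library with a median of 2.94, and had 2 reads in HB (1.69, adjusted p = 0.0217). It was not called under 6 of 41 alternatives. Members higher in HB were NMB (-0.81, adjusted p = 0.00796) and TAC1 (-0.33, adjusted p = 0.021), which were not called under 1 and 8 of 43 alternatives. NMB had 132.5, 211.7 and 696.1 in HB and 93, 121 and 171 in HYPO, and its log2FC ranged from -1.17 to -0.36 over the alternatives.

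Transcription factors that pattern the hypothalamus and the forebrain around it were higher in HYPO for 18 of 30 members and in HB for 1, with a median log2FC of 1.75. NKX2-1, which specifies the ventral hypothalamus, had 21.8, 32.4 and 53.1 in HYPO and 0, 0 and 5.88 in HB (log2FC = 4.19, adjusted p = 3.3e-08). DLX6, a gene of forebrain GABA neurons, had 56.3, 86.8 and 152.8 in HYPO and 0, 2.9 and 10.9 in HB (5.00, adjusted p = 9.4e-10). DLX5 (3.77), DLX2 (3.96), EMX2 (3.88) and SIX6 (3.04) likewise separated the 18 libraries.

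LHX9, a LIM homeobox gene, had 377, 513 and 691 in HYPO and 44.2, 66.5 and 107 in HB (log2FC = 2.92, standard error 0.12, adjusted p = 2.7e-13), with no overlap. LHX8 (4.05), LHX6 (2.41) and ISL1 (2.52) separated the regions too. Members of the same family did not all have this direction, since LMX1B was higher in HB (-1.02) and LHX1 was not called (-0.12, adjusted p = 0.387). For SIX3, at 147 to 264 in HYPO, 8 HB libraries had at most 37.2 and that of female 85889 had 186, and the log2FC was 4.39, or 4.92 without that library. NR5A1, a gene of the ventromedial nucleus (2.63, and 3.18 without it), overlapped between regions only through the same HB library. That library had 34.3, against 5.22 to 33.7 in HYPO. MEIS2 was the member higher in HB (-1.62, adjusted p = 3.5e-11), at 848 to 1406 against 297 to 467.

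Many of these genes were at least as high in the VmT. LHX6 had a VmT median of 1052, LHX8 of 422 and DLX6 of 332, beside HYPO medians of 227, 41.2 and 86.8. By contrast the VmT medians were 0.933 for PMCH, 9.75 for NPVF and 0 for NR5A1. Other peptides were not low in the VmT. GHRH, PDYN and NTS had VmT medians of 370.5, 263 and 488, above HYPO medians of 320, 160 and 390. VT, CCK, VIP and CARTPT had VmT medians of 82.1, 424.5, 323 and 68.2, below HYPO medians of 442, 657, 1189 and 227. The difference of HYPO from the VmT was not tested here. Of the genes that mark the telencephalon, 9 of 19 were higher in HYPO than in HB and 1 in HB. TBR1 (log2FC = 2.82) was among them, with a VmT median of 96.5.

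Of thalamus and midbrain markers 14 of 24 were higher in HYPO and 2 in HB. OTX2, a forebrain and midbrain factor, had 86.8, 151 and 238 in HYPO and 1.82, 22.8 and 63.7 in HB (3.21, adjusted p = 5.2e-06). SOX14 (1.94), GBX2 (1.77), TCF7L2 (2.40) and FOXA1 (2.07) also separated the regions. WNT2B, a secreted signalling protein, had 65.8, 131 and 263 in HYPO and 1.09, 2.01 and 14.1 in HB (log2FC = 4.96, adjusted p = 4.6e-10), and NR2E1, a nuclear receptor of neural progenitors, 186 to 337 and 4.56 to 39.2 (3.95). Other HYPO differences without overlap included heme-binding protein 2-like (2.76), FNDC9 (2.73) and, chosen after their values were seen, GDA, which breaks down guanine (2.21), and CPLX3, a complexin of vesicle release (2.05). VmT means of OTX2, NR2E1, FNDC9, GDA and CPLX3 were 192, 380, 307, 1454 and 394, above 157, 269, 160, 483 and 131 in HYPO. Those of SOX14, GBX2, TCF7L2, FOXA1, WNT2B and heme-binding protein 2-like were below their HYPO means.

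Receptors for peptides and hormones were higher in HYPO for 23 of 56 members and in HB for 2. MC3R, a receptor for melanocortins, had 58.9, 89.1 and 197 in HYPO and 3.87, 8.31 and 17.6 in HB (log2FC = 3.39, standard error 0.23, adjusted p = 4.7e-10), without overlap. MC5R (1.36), the kappa opioid receptor OPRK1 (1.17) and the prolactin receptor PRLR (0.82) separated the regions, the last at 687 to 1075 against 412 to 549. VmT means of MC3R, MC5R, OPRK1 and PRLR were 43.9, 323, 403 and 711, beside 105, 436, 255 and 852 in HYPO. TSHR (2.22), MC4R (1.11), VIPR2 (1.26) and the vasotocin receptor AVPR1A (0.56) were called with overlapping ranges. The 2 members higher in HB were CCKAR, a receptor for cholecystokinin (-1.18, adjusted p = 0.000526), and LEPR, the leptin receptor (-0.46, adjusted p = 0.0272), which was not called under 13 of 43 alternatives.

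Among steroid receptors and enzymes 4 of 25 were higher in HYPO and 1 in HB, and 20 were not called. Over all transcripts 8.15% were higher in HYPO and 12.5% in HB. The median log2FC of the list was -0.009, against -0.04 over all transcripts. ESR2, estrogen receptor beta, had 182, 218 and 388 in HYPO and 23.2, 50.2 and 77.9 in HB (log2FC = 2.34, standard error 0.18, adjusted p = 2.6e-09). The regions did not overlap for ESR2. ESR1, estrogen receptor alpha, had medians of 31.3 and 29.1 in its transcript with the highest mean (0.13, adjusted p = 0.808). With transcripts of the same protein name summed, ESR1 was called (adjusted p = 0.00866 in the same limma fit). Its log2FC ranged from -0.038 to 0.90 over the alternatives. CYP19A1, the aromatase that makes estradiol (1.14), and PGR, the progesterone receptor (1.03), were called with overlapping ranges.

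Genes of thyroid hormone supply and light detection were higher in HYPO for 5 of 13 members and in HB for 1. CRYM, which binds thyroid hormone in the cell, had 1527, 2589 and 3843 in HYPO and 478, 658 and 1330 in HB (log2FC = 1.87, adjusted p = 7.2e-08). It did not overlap between regions. SLCO1C1, a thyroxine transporter (1.76), THRB, a thyroid hormone receptor (0.71), and DIO2, which activates the hormone (0.48, adjusted p = 0.0152), were also higher in HYPO. OPN4, the photopigment melanopsin, was higher in HB (-1.39, adjusted p = 0.000615) at low levels, 3.12 to 28.3 against 1.04 to 5.89.

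For GABA transmission, 11 of 26 genes were higher in HYPO and 2 in HB. GAD1, which makes GABA, had 2371, 2786 and 3254 in HYPO and 1289, 1583 and 2014 in HB (log2FC = 0.81, adjusted p = 4.7e-08), without overlap, and GAD2 followed (0.70). The receptor subunit GABRG1 had 1299 to 2047 and 680 to 913 (1.14, adjusted p = 6.4e-11). The vesicular transporter SLC32A1 had medians of 4378 and 4203 (0.05, adjusted p = 0.677). VmT means of GAD1, GAD2, GABRG1 and SLC32A1 were 3279, 3412, 1059 and 6106.5, beside 2799, 2949, 1700 and 4335 in HYPO.

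For glutamate, 12 of 29 genes were higher in HYPO and 2 in HB. GRIN2B, an NMDA receptor subunit, was higher in HYPO without overlap (log2FC = 0.74), and the metabotropic receptor GRM2 had the largest difference of the list (1.5). The vesicular transporter SLC17A6 was called with a log2FC of 0.19 (adjusted p = 0.0278), but not under 17 of 43 alternatives. Receptors for serotonin, dopamine, histamine and adrenergic ligands were higher in HYPO for 7 of 28 members, led by DRD1 (0.89) and HTR7 (0.69), and in HB for 0. VmT means of GRIN2B, GRM2, SLC17A6, DRD1 and HTR7 were 4367, 401, 688, 2054 and 352, beside 2420, 323, 876, 336 and 206 in HYPO.

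Immediate early genes, which neurons transcribe when active, were higher in HYPO for 8 of 22 members and in HB for 0, with a median log2FC of 0.36. ARC had 347, 384 and 1088 in HYPO and 137, 163 and 235 in HB (log2FC = 1.34, adjusted p = 2.4e-07). The ARC ranges did not overlap. EGR1 (0.91) and BDNF (0.68) were called, and FOS was not (0.37, adjusted p = 0.149), although 3 of 43 alternatives called it. VmT means of ARC, EGR1, FOS and BDNF were 1094, 1736, 242 and 85, beside 467, 849, 346 and 104 in HYPO. Genes of tanycytes and ependyma were higher in HYPO for 9 of 24 members and in HB for 0, with RSPH1, a protein of motile cilia, at 1.17.

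The list of general neuron genes was near the background in HB and above it in HYPO, with 3 of 19 higher in HB and 5 in HYPO and a median log2FC of -0.04. CAMK2A, a kinase of excitatory synapses, was the extreme member, at 3691 to 6505 in HYPO and 1706 to 2161 in HB (1.302, adjusted p = 3.6e-11). The CAMK2A mean was 23142 in VmT, beside 4820 in HYPO. PRL itself was called higher in HB (log2FC = -3.68, standard error 1.23, adjusted p = 0.0365), with medians of 8.69 in HB and 0 in HYPO. Without the HB library of female 85889 the log2FC was -2.43 (adjusted p = 0.0449). PRL was not called under 17 of 43 alternatives (highest adjusted p = 0.184).

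**Figure D5:**
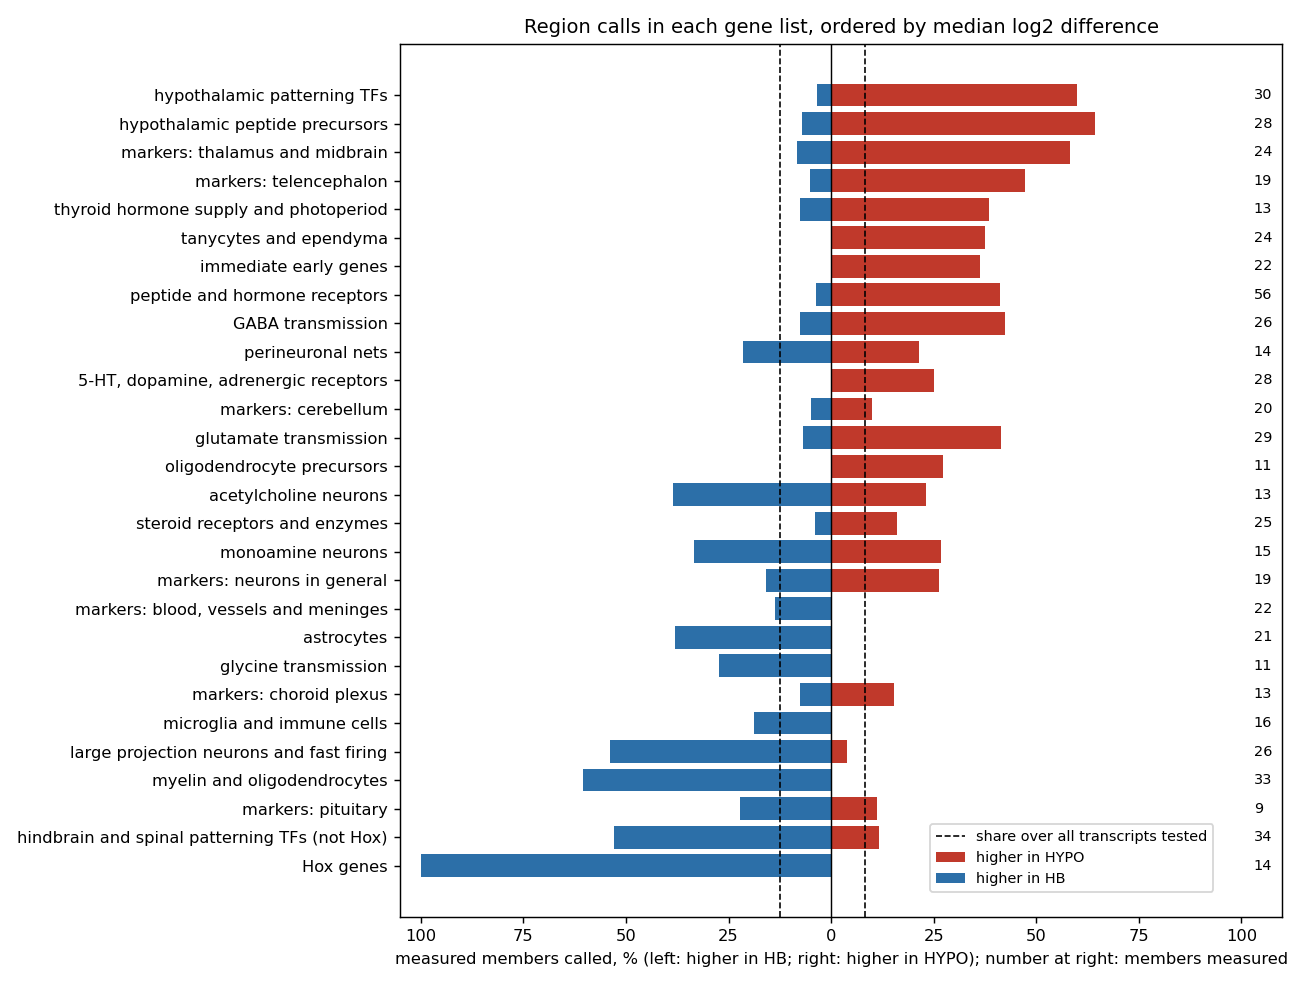
Share of measured members called higher in HB (blue, to the left) and in HYPO (red, to the right) for each of 28 gene lists, in percent, ordered by the median log2FC. Dashed lines mark the shares over all transcripts, 12.5% and 8.15%, and the number at the right is the number of members measured; all 14 Hox genes are called in HB, and 18 of 28 peptide precursors and 18 of 30 hypothalamic patterning factors in HYPO. The lists were chosen with earlier results of these data known.

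The region difference was then fitted in each stage alone, on different females. Of 18940 transcripts tested in both fits, the 4 TE females gave 742 calls higher in HYPO and 1123 in HB, and the 5 INC females 1029 and 1591. In the HYPO direction 462 were shared, which is 62.3% of the TE list and 44.9% of the INC list. In the HB direction 561 were shared, 50% of the TE list and 35.3% of the INC list. Called directions were opposite for 5 transcripts. VT had a log2FC of 7.48 in TE and 6.74 in INC, and HOXA3 of -8.23 and -8.13.

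The test of whether the region difference itself depended on stage called 75 transcripts (0.386%), of which 12 had the larger value of HYPO minus HB in TE and 63 in INC. Their count rested on single libraries and settings. It was 0 without both libraries of female 85689, 639 without the HB library of female 85694, 533 without the HYPO library of female 85757, 3 with no replicate block and 1 when the fit was repeated on transcripts with a mean of at least 50 only. None of 151 genes looked at singly was called (lowest adjusted p = 0.0846), and 10 had an unadjusted p under 0.05.

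Most of the stage-dependent transcripts had few reads, and 15 of the 75 had a mean of at least 50. Their mean over the 18 libraries had a median of 8.41 normalized counts, against 92.5 over all transcripts, and their median value was 0 to 1.29 in the 4 HYPO_TE libraries, 2.82 in the HYPO_INC library of female 85757 and 10.1 to 19.9 in the other HYPO_INC libraries. In HB the median was 4.35 to 21 in TE and 4.51 to 8.77 in INC. Detection at equal reads moved with this. It was 18304 to 18609 transcripts in HYPO_TE, 18332 in the HYPO_INC library of female 85757 and 18698 to 18825 in the other HYPO_INC libraries, and in HB it was lowest in females 85694 (18519) and 85757 (18531). Its part in the stage dependence was not tested. The call with the lowest p was a transcript of phospholipase C beta-4, at 0 in all 4 HYPO_TE libraries, 4.22 to 19.9 in HYPO_INC, 4.35 to 16.1 in HB_TE and 3.38 to 11.8 in HB_INC (difference of log2FC TE minus INC = -4.03, standard error 0.53, adjusted p = 0.00401). Transcripts of bromodomain-containing protein 7 (-4.03), eukaryotic translation initiation factor 5B (-4.16) and transforming acidic coiled-coil-containing protein 1-like (-3.87) had values of at most 2.28 in HYPO_TE and of at least 4.22 in HYPO_INC. Post-GPI attachment to proteins factor 3, with the opposite sign, had 104.2 to 135 in HYPO_TE, 65.8 to 81.8 in HYPO_INC, 50 to 77.3 in HB_TE and 82.3 to 105.3 in HB_INC (1.04, adjusted p = 0.0206).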

How the data were processed

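RNA of 18 HYPO and HB libraries was sequenced as stranded mRNA libraries. Per the study's methods and the submitters' processing notes, the authors trimmed reads with Trimmomatic 0.36, mapped them with Bowtie2 2.3.4.1 to a tree swallow transcriptome, kept proper pairs with SAMtools 1.3.1 and counted them per transcript. The deposited signal values, 1 per transcript and library, are named FPKM, but 100% of low values in each library were whole multiples of 1 step within a tolerance of 0.1, so they are normalized counts not divided by length. The files give protein names, not gene symbols: 585 of 735 symbols in 28 lists were matched to protein names by hand, and each symbol stands for its transcript with the highest mean.

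Only transcripts that reached 1 normalized count in 4 or more of the 18 libraries (19437 of 19478) were fitted on log2(value + 1) with limma 3.58.1 in R 4.3.3 (trend, Benjamini-Hochberg adjustment over all transcripts). The female was a random block (consensus correlation 0.234), since both libraries of a female come from the same bird. Deviations from group means correlated at 0.128 to 0.385 within the 9 females. The same fit was checked on simulated data. Named genes were the 15 largest differences in each direction among called transcripts with no overlap and a mean of at least 50, list members, and the 5 lowest p of the stage test. The members and lists were chosen with earlier results of these data known. Whole reads, recovered by dividing by the step, were tested with edgeR 4.0.16 and DESeq2 1.42.0 as alternatives. Other alternatives changed the block, pseudocount, filter, scaling, weights, stages and libraries. Counting intervals cover counting error only. Each library is 1 block of 1 bird, and 1 VmT library whose female the labels leave unsettled was used only in VmT values and the 27-library alternative. Some list members, counted in the totals, are not reported here by name.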

Additional observations from a re-analysis of the deposited data

Results flagged for a closer look

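In 12 of 156 groups of 4 or 5 libraries, 1 library lay apart from the others by the ratio of its gap to the range of the group. Chance sets about 1 in 20 groups of normally distributed values apart in this way. That rate does not hold for groups in which 1 library has the only reads, since their ratio is then fixed at 1.0. For VT the HYPO_TE library of female 85694 was the highest (9.91 on the scale of log2(value + 1), the other 3 at 8.79 to 8.96, ratio 0.847). For corticoliberin-like it was the HYPO_TE library of female 85689 (7.76, the others at 6.66 to 6.84, ratio 0.832), and for UTS2B the HB_TE library of female 85674 (8.76, the others at 8.49 to 8.53, ratio 0.869).

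A single library held all the reads of its group, a ratio of 1.0, for HOXB5 (HYPO_INC of female 85889, 1.03), HOXD4 (HYPO_INC of female 85840, 1.03, and HYPO_TE of female 85689, 1.10), HOXD3 (HYPO_INC of female 85840, 1.03) and PRL (HYPO_TE of female 85674, 1.57). These Hox values are those of 1 read.

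The mean log2 level of the pituitary markers was highest in the HB_TE library of female 85674 (7.42, the others at 4.85 to 5.28, ratio 0.834) and in the HYPO_TE library of female 85689 (5.52, the others at 4.99 to 5.05, ratio 0.886). That of general neuron markers was highest in the HB_INC library of female 85899 (10.62, the others at 10.48 to 10.50, ratio 0.857) and lowest in the HB_TE library of female 85694 (10.39, the others at 10.59 to 10.63, ratio 0.833).

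By the limma test of the difference itself, the region difference was called different between the stages with the lowest p for 5 transcripts. These were phospholipase beta-4 (TE minus INC = -4.03, adjusted p = 0.00401), bromodomain-containing protein 7 (-4.03), eukaryotic translation initiation factor 5B (-4.16), transforming acidic coiled-coil-containing protein 1-like (-3.87) and post-GPI attachment to proteins factor 3 (1.04). With a library or female left out, the 5 stayed called in 106 values and lost the call in 29. Under other settings they stayed called in 54 values, lost the call in 5 and changed sign in 2.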

How the results depend on the processing

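The 30 transcripts with the largest differences, whose direction their choice fixes, stayed called in all 472 values under other settings and all 810 values with a library or female left out. With no replicate block, so without the pairing of the 2 libraries of a female, 1183 transcripts were higher in HYPO, 1768 in HB and 3 depended on stage. With a library or female left out, the counts ranged from 1253 to 1681 for HYPO, 1914 to 2758 for HB, 44 to 56 and 46 to 52 for their markers, and 0 to 639 for stage dependence. The TE females alone gave 744 and 1125 calls with 74 and 211 markers, and the INC females alone 1033 and 1592 calls. A mean of at least 50 left 21 markers in either direction, since fewer transcripts were tested. The count of stage-dependent transcripts was 1 with that filter, 3 with 27 libraries, 36 with a pseudocount of 5, 119 after quantile normalization, 30 with no trend, 335 with array weights, 325 with edgeR, 156 with DESeq2 and 11 with transcripts of 1 protein name summed. Summing turned bromodomain-containing protein 7 (OXPHG373625) to 0.0213 and eukaryotic translation initiation factor 5B (OXPHG144345) to 0.0146. Uncalled genes changed sign, namely DDC (0.0186 after quantile normalization, 0.26 in TE), CRH (-0.0174 with array weights, -0.18 in INC), TTR (0.31 with edgeR, 0.50 in TE), GABRA6 (0.00523 with DESeq2, 0.0273 in INC), OTP (0.24 in TE), HTR1A (0.0481 in TE) and ESR1 (-0.0383 in INC). With a library or female left out, CRH ranged from -0.0519 to 0.13, ESR1 from -0.0278 to 0.317, GABRA6 from -0.41 to 0.394, HTR1A from -0.2001 to 0.00149 and DDC from -0.156 to 0.113. Genes not called became called for TRH in 6 of 43 alternatives (lowest adjusted p in any tool 0.00549), FOS in 3 (0.00559), ESR1 in 1 (0.00866, transcripts summed) and SLC32A1 in 1 (0.0482, quantile normalization). Where no construction is named, the cause was not tested. Transcripts with few reads limit what depth can show, and so do 4 or 5 females per stage.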
